A study of Homo sapiens with 6 samples.

Results

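The genes of the DNA replication machinery and of entry into S phase were followed in PANC-1, an established line of human pancreatic carcinoma cells, with and without silencing of the palmitoyltransferase gene ZDHHC20. The set was given as a list of 51 gene symbols covering origin licensing, the replicative helicase, the polymerases, the sliding clamp and the G1/S switch. Each symbol was found once among the 27394 genes of the deposited table, and all 51 reached the required mean of 1, so that all of them were tested. The samples were 3 libraries from cells infected with a control shRNA (shControl) and 3 from cells infected with an shRNA against ZDHHC20 (shZDHHC20), all grown with fetal bovine serum, in RPMI-1640 per the labels and in DMEM per the methods of the study. The study used more than one shRNA against ZDHHC20, and the labels say neither which of them these libraries carry nor how long after infection the cells were taken. The study describes its in vitro experiments in general as biological replicates, but the labels do not say whether the 3 libraries of a group came from separate cultures, so p-values measure the spread between these libraries, which may be technical.

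DNA replication starts at origins bound by the origin recognition complex. In G1 phase, CDC6 and CDT1 help the complex to load the ring-shaped MCM helicase, and at the start of S phase the helicase is switched on by CDC45, the GINS complex and MCM10. Primase and the replicative polymerases then copy the strands, held to DNA by the PCNA clamp, while the RPA complex covers single-stranded DNA. The passage from G1 to S phase is driven by cyclin D with CDK4 or CDK6 and by cyclin E with CDK2, which inactivate the RB1 protein and free the E2F transcription factors. Many replication genes are textbook E2F targets, and cyclin D and E2F genes are classical genes of proliferating cells.

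Promoter sequences are shown for the 4 MCM genes that were lower in shZDHHC20 libraries and had an entry in the RefSeq promoter table, and for PCNA, POLD2 and RPA1, because they show the E2F words that some of these genes hold and others lack. Each line gives 100 bases before the transcription start and 20 bases from it on, 5′ to 3′ on the strand of the gene, from RefSeq on GRCh38.p14. Capitals mark the E2F words TTTGGCGC, TTTCCCGC, TTTGCCGC and TTTCGCGC on either strand, which are letters found in the sequence and not measured binding sites. The windows are chr3:127598311-127598430 on the plus strand for MCM2, chr6:52284723-52284842 on the minus strand for MCM3, chr2:135876424-135876543 on the minus strand for MCM6 and chr7:100101378-100101497 on the minus strand for MCM7. Those of the other genes are chr20:5126603-5126722 on the minus strand for PCNA, chr7:44123529-44123648 on the minus strand for POLD2 and chr17:1829905-1830024 on the plus strand for RPA1.
MCM2: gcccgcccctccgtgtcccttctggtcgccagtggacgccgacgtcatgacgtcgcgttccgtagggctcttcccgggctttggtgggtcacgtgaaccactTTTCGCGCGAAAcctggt
MCM3: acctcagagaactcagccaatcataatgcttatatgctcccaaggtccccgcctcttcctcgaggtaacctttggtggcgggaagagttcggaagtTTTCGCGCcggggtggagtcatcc
MCM6: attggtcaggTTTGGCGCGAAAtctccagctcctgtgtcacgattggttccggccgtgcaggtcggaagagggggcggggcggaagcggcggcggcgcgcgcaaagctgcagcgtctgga
MCM7: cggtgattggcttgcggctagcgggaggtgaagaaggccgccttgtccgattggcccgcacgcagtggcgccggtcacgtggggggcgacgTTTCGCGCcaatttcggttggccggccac
PCNA: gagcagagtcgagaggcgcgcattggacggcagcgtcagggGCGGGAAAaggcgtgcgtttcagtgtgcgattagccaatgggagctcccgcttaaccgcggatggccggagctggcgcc
POLD2: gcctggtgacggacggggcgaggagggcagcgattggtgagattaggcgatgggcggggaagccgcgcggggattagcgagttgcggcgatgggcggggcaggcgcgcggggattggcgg
RPA1: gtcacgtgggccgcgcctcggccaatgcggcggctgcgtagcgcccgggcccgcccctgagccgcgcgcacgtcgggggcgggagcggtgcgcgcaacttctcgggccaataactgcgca
In the MCM2 and MCM6 windows, words on both strands overlap to give one run of 12 capitals. The POLD2 and RPA1 windows hold none of these words, and neither do the 300 bases of their entries in the table.

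The values are read counts divided by one factor per library, called normalized read counts below. The libraries hold between 16575546 and 18441049 reads. ZDHHC20 itself, the check of the labels, was at 1940.4 to 2033 in the shControl and at 779 to 893 in the shZDHHC20 libraries, without overlap. Read counts of libraries of one group varied more than counting alone would give, with a chi-square per degree of freedom between 2.03 and 2.29 for all pairs without shZDHHC20 replicate 2 and of 10.6 and 13.6 for the pairs with it. In that library 4.01% of the signal came from mitochondrial genes, against 5.28% to 5.52% in the other 5, so it stands apart and results are given with and without it. The epithelial keratins KRT8, KRT18 and KRT19 had means of 56187, 19660.2 and 5917 in shControl, with adjusted p of 0.0631, 0.0549 and 0.218 between the groups (limma). KRT7 was at 86.5, and 0 of the 4 keratins passed in limma, with 2 lower at an unadjusted p under 0.05 and 1 lower in edgeR and 2 in DESeq2. Of 13 markers of blood, endothelial, stromal, liver and endocrine or exocrine pancreas cells, 8 were in the table and their summed value was 73.8 to 86.1 in the shControl and 96.7 to 113 in the shZDHHC20 libraries, most of it from COL3A1. The other 7, PTPRC, CD68, VWF, CD34, LUM, ALB and PRSS1, were at 8.45 or below in every library, and LUM and ALB at 0 in all shControl libraries. Of the 5 markers tested, 0 passed in limma, edgeR or DESeq2, and 3 were higher at an unadjusted p under 0.05 (CD34, LUM and PRSS1, adjusted p = 0.173, 0.188 and 0.19, limma). The part of these cells in the results was not tested.

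ZDHHC20 silencing went with lower transcript levels of a small group of replication genes. In the limma fit over all genes, with the threshold at an adjusted p under 0.05 (Benjamini-Hochberg), 8 of the 51 genes were lower in shZDHHC20 cells and 0 were higher, and 43 did not pass. This is 15.7% called. Of all genes tested 11.5% were called, 6.84% lower, and of those whose mean reached 100, 21.7% were called, 13.3% lower. The 8 were the helicase subunits MCM2, MCM3, MCM6 and MCM7, the polymerase delta subunit POLD2, the single-strand binding subunits RPA1 and RPA2, and cyclin D1 (CCND1). Their levels in shZDHHC20 cells lay between 69.0% (RPA2) and 87.0% (MCM6) of shControl. In bulk libraries of cycling cells, fewer cells in S phase and less of a transcript in each cell cannot be told apart. In GENCODE 29, genes on the opposite strand overlap MCM2 (TPRA1), MCM7 (AP4M1), RPA1 (SMYD4) and CCND1 (LTO1), and RPA2 and POLD2 have 3 and 1 pseudogene copies, so reads of these genes may include some of their neighbours'.

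The share of replication genes called lower was above that of all genes and not far from that of genes whose mean reached 100. Over all 22189 genes tested, 11.5% were called in either direction, 6.84% lower and 4.61% higher, against 15.7% of the 51, all of them lower. Among genes whose mean reached 100, as it did for 50 of the 51, 21.7% were called in either direction and 13.3% lower. At an unadjusted p under 0.05, 17 of the 51 were lower and 2 were higher, where 12.6% of all genes were lower and 11.2% higher. On recovered reads edgeR called 8 of the 51 lower and 0 higher, against 7.02% of all genes lower, and DESeq2 called 9 lower and 0 higher, against 11.1% of the 14014 genes with an adjusted p.

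Most of the 51 genes lay below 0. The median log2 fold change of the 51 genes was -0.12, with 37 below 0 and 14 above, against a median of 0.01 over all genes tested, of which 48.3% were below 0. In 19 of the 51 the 3 shControl and the 3 shZDHHC20 values did not overlap, and in all 19 the shZDHHC20 values were the lower ones. Groups without overlap were found in 28.6% of all genes, and in 14.8% with shZDHHC20 the lower.

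**Figure D1:**
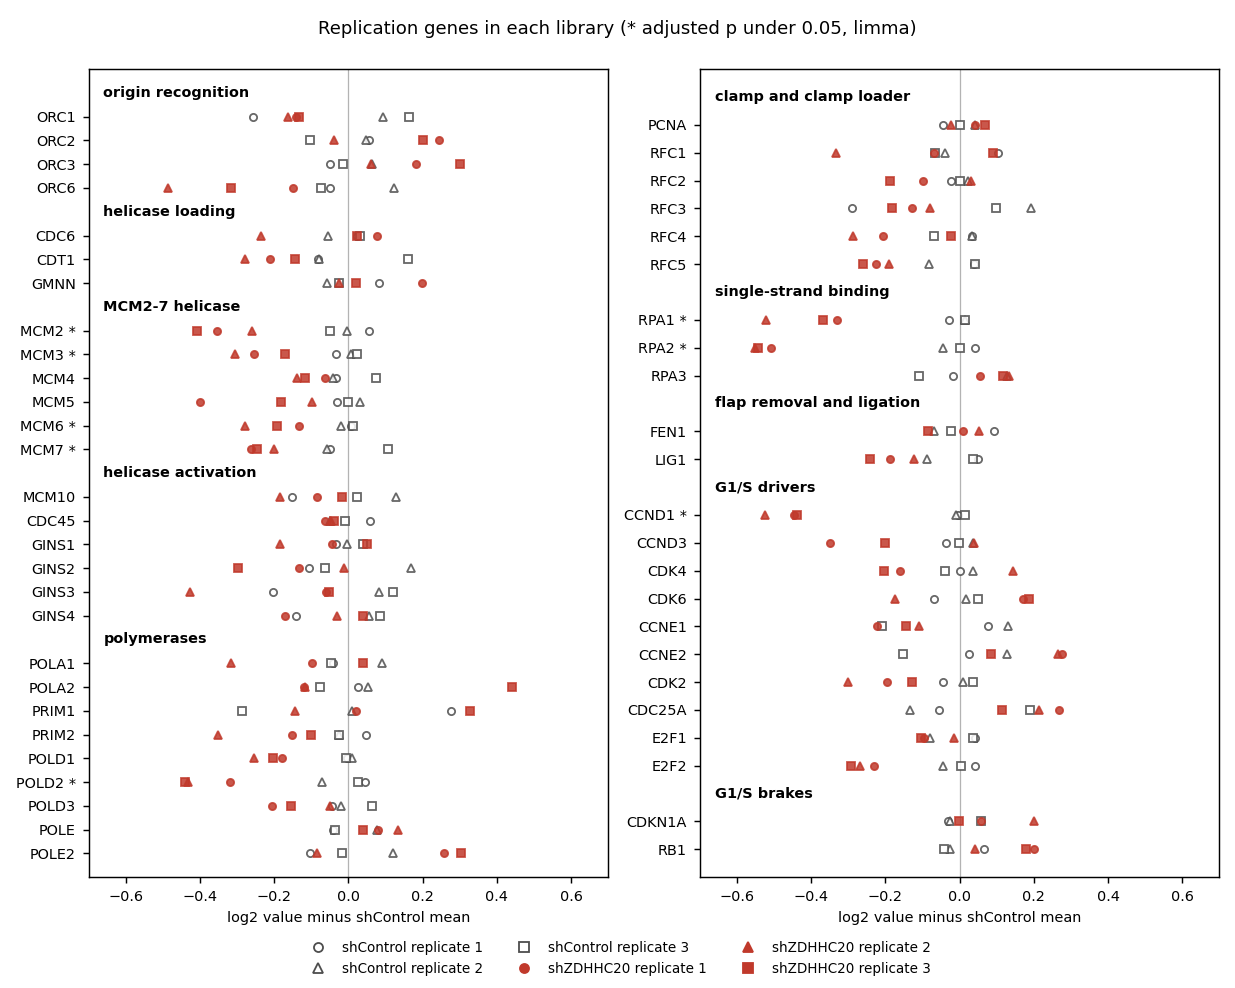
Each point is 1 library, plotted as its log2(normalized read count + 0.1) minus the mean of the 3 shControl libraries (x axis), for the 51 replication genes ordered by role (y axis). Open symbols are shControl, filled red symbols shZDHHC20, the shape gives the replicate and asterisks mark the 8 genes with an adjusted p under 0.05. The red points of the 6 MCM helicase genes lie left of all their open points, while those of most other roles mix with them.

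The minichromosome maintenance genes MCM2 to MCM7 encode the 6 subunits of the replicative helicase, and this was the group with the most calls. All 6 had lower values in every shZDHHC20 library than in any shControl library, and 4 of the 6 passed the test, with 5 at an unadjusted p under 0.05. Of all genes tested, 14.8% were lower without overlap and 12.6% were lower at an unadjusted p under 0.05 (limma). Of genes whose mean reached 100, 13.3% were called lower. Of those whose mean reached 500, as it did for all 6 MCM genes, 24.7% were called in either direction. The median log2 fold change of the 6 MCM genes was -0.23. MCM2 (ENSG00000073111, chromosome 3) was at 1114, 1069.6 and 1035 normalized read counts in shControl replicates 1 to 3 and at 838, 896 and 808 in shZDHHC20. Its mean fell from 1073 ± 39.2 to 848 ± 44.5 (SD, n = 3 each), a log2 fold change of -0.34 with a standard error of 0.0657 and an adjusted p of 0.00446 (limma).

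MCM3 (chromosome 6) was at 2136, 2197 and 2222 in shControl and at 1831, 1768 and 1940.1 in shZDHHC20, and the lowest control stood above the highest knockdown library. Its log2 fold change was -0.24 with an adjusted p of 0.0111 (limma). MCM7 (chromosome 7) was among the most abundant of these genes, at 2867, 2852 and 3199 in shControl and 2476, 2584 and 2505 in shZDHHC20, and it fell by 0.24 on the log2 scale (adjusted p = 0.0158, limma). MCM6 (chromosome 2) showed the smallest change of the called helicase genes, from 1575, 1549 and 1583 in shControl to 1429.9, 1293 and 1372 in shZDHHC20, with a log2 fold change of -0.20 (adjusted p = 0.0394, limma).

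MCM5 and MCM4 did not pass in limma. MCM5 (chromosome 22) was at 1383, 1443 and 1409.7 in shControl and at 1071, 1319 and 1245 in shZDHHC20, so that the knockdown libraries were spread over a wide range below the controls, and its log2 fold change was -0.23 (adjusted p = 0.0696, limma). MCM5 was called lower by DESeq2 on recovered reads (adjusted p = 0.0437) and by limma with robust moderation of the variance (adjusted p = 0.0418). MCM4 (chromosome 8) was at 2479, 2461 and 2669 in shControl and at 2425, 2303 and 2337 in shZDHHC20. Its log2 fold change of -0.11, with a 95% interval from -0.22 to 0.01 and an adjusted p of 0.25 (limma), was the smallest of the 6.

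The calls of MCM3, MCM6 and MCM7 were lost in some of the fits that left out a library, in which fewer genes were called in all. Without shControl replicate 3, and also without shZDHHC20 replicate 1, 5 of the 51 genes were called, and these 3 were the ones lost. Over all genes, 1233 and 1375 were then called, against 2541 with all libraries. Without shControl replicate 2, MCM3 and MCM6 lost their calls, and without shZDHHC20 replicate 3, MCM6 and MCM7 did. In that order, these fits called 1283 and 1773 genes in all. Over all alternatives run, the log2 fold changes ran from -0.28 to -0.21 for MCM3, -0.24 to -0.16 for MCM6 and -0.26 to -0.18 for MCM7. Over all the leave-outs MCM6 was called only without shZDHHC20 replicate 2, whereas MCM2, POLD2, RPA1, RPA2 and CCND1 were called in every leave-out.

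**Figure D2:**
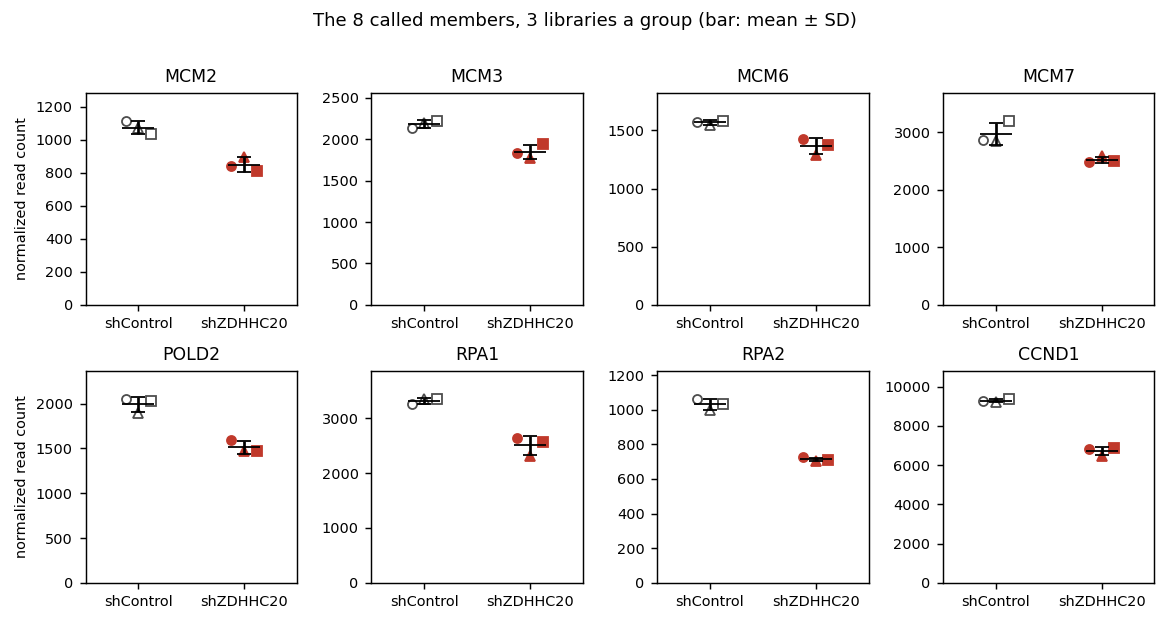
Normalized read counts (y axis, from 0) of the 8 called genes in the 3 shControl and the 3 shZDHHC20 libraries, with the mean and SD of each group as black bars and the replicate given by the shape as circle, triangle and square for 1, 2 and 3. In each panel all shZDHHC20 points lie below all shControl points, most clearly for RPA2, which was at 704 to 725 against 1000.3 to 1063.

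The steps before helicase loading gave no call. Of the origin recognition genes listed, ORC1, ORC2, ORC3 and ORC6, 0 of 4 passed in limma, edgeR or DESeq2, with 1 lower and 1 higher at an unadjusted p under 0.05, and their median log2 fold change was -0.01. ORC6, a subunit loosely held by the complex, was at 286, 322 and 281 in shControl and at 267, 211 and 238 in shZDHHC20. The groups of ORC6 did not overlap, but the log2 fold change of -0.32 missed the threshold (adjusted p = 0.0866, limma). ORC3, part of the core of the complex, lay on the other side, at 1049.9, 1136 and 1075 in shControl and 1234, 1133 and 1339 in shZDHHC20, with a log2 fold change of 0.18 (adjusted p = 0.127, limma).

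Among the loading factors 0 of 3 passed with any of the 3 tools, and 1 was lower at an unadjusted p under 0.05. CDT1, which delivers the helicase, was at 437, 438 and 517 in shControl and at 399.6, 381 and 419 in shZDHHC20, with no overlap and a log2 fold change of -0.21 (adjusted p = 0.169, limma). Its inhibitor geminin (GMNN) was at 476 to 524 in shControl and 486 to 568 in shZDHHC20, ranges that overlap. CDC6, the loading ATPase, was at 505 ± 16.2 and 491 ± 55.3 (SD, n = 3 each).

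The genes that switch the loaded helicase on gave no call. MCM10, CDC45 and GINS1 to GINS4 all had log2 fold changes below 0, from -0.18 to -0.05 with a median of -0.08, but the groups overlapped in each of the 6. In this role 0 of 6 passed in limma, edgeR or DESeq2, and 0 had an unadjusted p under 0.05. CDC45, which forms the active helicase with MCM and GINS, was at 266 ± 10.00 in shControl and 257 ± 2.28 in shZDHHC20 (SD, n = 3 each), and the 95% interval of its log2 fold change ran from -0.25 to 0.15. GINS3, a subunit of the GINS complex, was at 115, 141 and 144 against 127, 98.6 and 128, a log2 fold change of -0.18 (adjusted p = 0.525, limma). GINS2, another subunit, was at 176, 213 and 181 against 173, 188 and 154, with a log2 fold change of -0.15 (adjusted p = 0.524, limma).

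Of the 9 primase and polymerase genes, 1 was called. POLD2 (ENSG00000106628, chromosome 7), the second subunit of the lagging-strand polymerase delta, was at 2055, 1898 and 2030.5 in shControl and at 1597, 1477 and 1469.5 in shZDHHC20. All 3 knockdown values were well below the lowest control, and POLD2 fell to 75.9% of shControl, with a log2 fold change of -0.40, a standard error of 0.0587 and an adjusted p of 0.000707 (limma). POLD1, the catalytic subunit of the same enzyme, was at 685, 692 and 685 in shControl and at 607, 577 and 597 in shZDHHC20. These groups were tight and apart, but the log2 fold change of -0.21 did not pass (adjusted p = 0.0602, limma). POLD1 did pass with a required mean of 5 in place of 1 (adjusted p = 0.0460) and without moderation of the variance (adjusted p = 0.0338). POLD3 had non-overlapping groups as well, with a log2 fold change of -0.14 (adjusted p = 0.269, limma).

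The genes of the leading-strand polymerase epsilon did not pass. The catalytic subunit POLE was at 1524, 1652 and 1529.9 in shControl and 1658, 1719.6 and 1611 in shZDHHC20, a log2 fold change of 0.08 with a 95% interval from -0.04 to 0.21. POLE2 was at 158 to 184 against 159.7 to 209. The polymerase alpha and primase genes POLA1, POLA2, PRIM1 and PRIM2 had log2 fold changes between -0.20 and 0.07. Of these, 0 passed in limma, edgeR or DESeq2, and 1, PRIM2, was lower at an unadjusted p under 0.05 (adjusted p = 0.141, limma).

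The clamp did not differ detectably. PCNA, the ring that tethers polymerases to DNA and a common marker of proliferating cells, was at 2296, 2436 and 2368 in shControl and at 2434, 2326 and 2483 in shZDHHC20. The groups overlapped, and the 95% interval of its level in shZDHHC20 ran from 94.4% to 110.3% of shControl (log2 fold change 0.03, adjusted p = 0.795, limma). The clamp loader genes RFC1 to RFC5 had log2 fold changes from -0.22 to -0.09. RFC5 was at 294, 270.2 and 294 in shControl and 245, 251 and 239 in shZDHHC20, without overlap, and was the 1 gene of the 6 in this role with an unadjusted p under 0.05 (adjusted p = 0.156, limma). RFC4 was at 688, 689 and 642 against 583, 551 and 662, ranges that overlap, with a log2 fold change of -0.17 (adjusted p = 0.217, limma). With edgeR and DESeq2, 0 of the 6 were called.

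The RPA complex, which coats single-stranded DNA, held the lowest of all 51 log2 fold changes. RPA2 (ENSG00000117748, chromosome 1), the middle subunit, was at 1063, 1000.3 and 1033 in shControl and at 725, 704 and 708 in shZDHHC20. It fell by 0.53 on the log2 scale, to 69.0% of shControl with a 95% interval from 62.9% to 75.8% (adjusted p = 0.000116, limma). RPA1 (ENSG00000132383, chromosome 17), the large subunit that makes most of the DNA contacts, was at 3253, 3349.5 and 3354 in shControl and at 2641, 2311 and 2570.4 in shZDHHC20. Its log2 fold change was -0.41 with a standard error of 0.0571 and an adjusted p of 0.000486 (limma).

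RPA3, the small subunit, was at 732, 809.5 and 687 in shControl and at 769.5, 813 and 804 in shZDHHC20, so the groups overlapped and the log2 fold change was 0.10 (adjusted p = 0.453, limma).

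FEN1 and LIG1, which cut the flaps of Okazaki fragments and join the ends, gave 0 calls among 2 genes in limma, edgeR and DESeq2. FEN1 was at 989, 885 and 914 in shControl and 935, 963 and 876 in shZDHHC20, with overlapping ranges and a log2 fold change of -0.01. LIG1 was at 696, 633 and 689.8 against 590.4, 617 and 569, without overlap, and its log2 fold change of -0.18 had an unadjusted p under 0.05 but did not pass (adjusted p = 0.135, limma).

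Cyclin D1 stood out among the genes of the G1/S switch. CCND1 (ENSG00000110092, chromosome 11), the regulatory partner of CDK4 and CDK6, was at 9259.9, 9233 and 9380.5 in shControl and at 6824, 6457 and 6855 in shZDHHC20. The knockdown libraries lay far below the controls, and CCND1 fell to 72.2% of shControl with a 95% interval from 67.7% to 77.1% (log2 fold change -0.47, adjusted p = 2.06e-05, limma), which was the smallest p of the 51. It was the only one of 10 G1/S drivers to pass. The median log2 fold change of the 10 was -0.12.

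The kinases that cyclin D binds did not pass. CDK4 was at 1233, 1263 and 1199 in shControl and at 1102, 1361 and 1069 in shZDHHC20, where replicate 2 lay above all controls and the other two below them. CDK6 was at 1479, 1572 and 1607 against 1746, 1377 and 1768, with replicate 2 below and the others above all controls. Cyclin D3 (CCND3) was at 547, 574 and 559.7 in shControl and 439.9, 576 and 487 in shZDHHC20, again with replicate 2 at the top.

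CDK2, the kinase of cyclin E, was at 846, 878 and 894 in shControl and at 762, 708 and 799 in shZDHHC20, without overlap but not past the threshold (log2 fold change -0.21, adjusted p = 0.0726, limma). Cyclin E1 (CCNE1) was at 266, 276 and 218 against 216, 234 and 228, ranges that overlap. Cyclin E2 (CCNE2), the lowest gene of the set, was at 66.1 to 80.3 in shControl and 78.0 to 89.0 in shZDHHC20. Its log2 fold change was 0.21 with a 95% interval from -0.14 to 0.56, so that neither a lower nor a higher level was detectable in these libraries. The phosphatase CDC25A, which activates CDK2, was at 239 to 299 against 284 to 316.

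E2F1, an activator of replication genes, was at 596, 548 and 594 in shControl and at 542, 573 and 539 in shZDHHC20, with overlapping ranges and a log2 fold change of -0.07 (adjusted p = 0.61, limma). E2F2, a second activator, was at 229, 216 and 223 against 189.7, 185 and 182, without overlap and with a log2 fold change of -0.26 (adjusted p = 0.122, limma). The brakes of the switch, the CDK inhibitor p21 (CDKN1A) and the E2F repressor RB1, had log2 fold changes of 0.09 and 0.14. Of these, 0 of 2 passed with limma, edgeR or DESeq2, and RB1 was higher at an unadjusted p under 0.05. CDKN1A was at 1953, 1959 and 2077 in shControl and 2075, 2293 and 1994 in shZDHHC20, and RB1 was at 1255, 1178 and 1163 against 1376, 1233 and 1356.

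**Figure D3:**
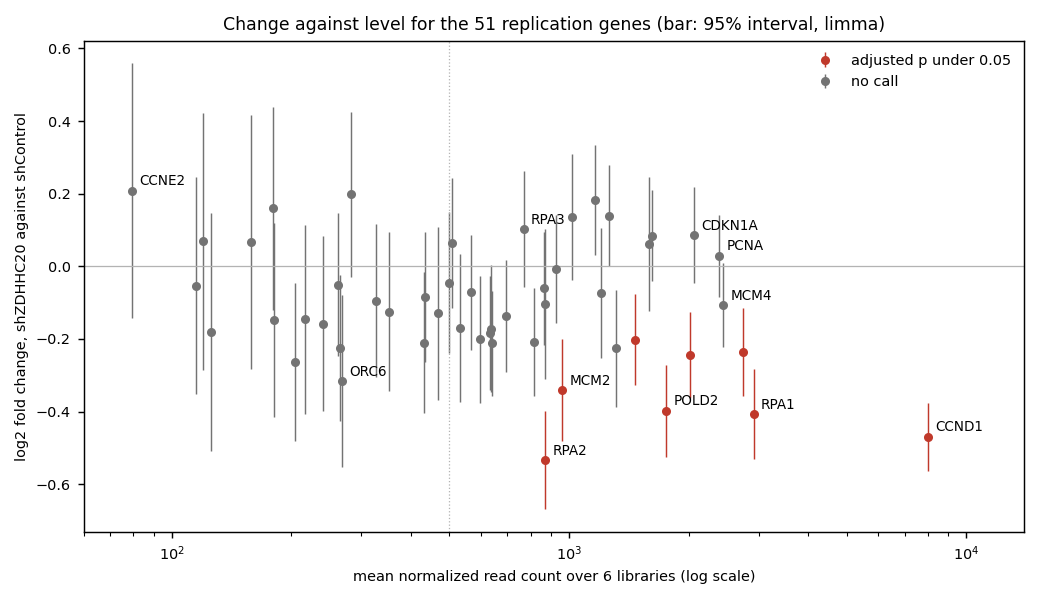
Log2 fold change of shZDHHC20 against shControl (y axis, bars show the 95% interval from limma) against the mean normalized read count over 6 libraries (x axis, log scale) for the 51 genes, with the 8 called genes in red and the dotted line at a mean of 500. All red points lie to the right of the line, and the bars to its left are longer in the median, though the lengths on its sides overlap.

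The calls followed the abundance of the transcripts. All 8 called genes were among the 31 with a mean of at least 500, a value chosen after the results were seen, where the median standard error of the log2 fold change was 0.0687. Of the 20 genes under 500, 0 were called by limma, and their median standard error was 0.110. The medians of the log2 fold changes in the more and the less abundant genes were -0.14 and -0.11. Over all genes tested, 24.7% of those with a mean of at least 500 and 5.59% of those below were called.

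On a scale per length, the normalized read count divided by the exon length in kb, CCND1 was the most abundant of the 51 in shControl at 1924 per kb, followed by PCNA at 1609 and then by MCM7 at 678, CDKN1A at 655 and RPA1 at 604. At the other end were CCNE2 at 16.8 per kb, POLA2 at 20.3 and GINS4 at 21.4. With the coding length in place of the exon length, 7 of the 10 highest remained among the 10 highest, and RPA3, CDK6 and GINS1 entered, as genes with long untranslated parts relative to their coding sequence. CCND1 was first on both scales and CCNE2 last.

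The library of shZDHHC20 replicate 2 differed from its 2 companions in these genes as it did elsewhere. It lay below both of the others in 27 of the 51 genes and above both in 17. The median absolute log2 difference between replicate 2 and the mean of replicates 1 and 3 was 0.129 in the 51 genes, against 0.0593 between replicates 1 and 3. Over all genes that reached a mean of 100 the same values were 0.142 and 0.0691. The largest differences of replicate 2 were -0.37 for GINS3, -0.36 for POLE2, -0.35 for RFC1 and CDK6, -0.33 for PRIM1 and 0.33 for CDK4.

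Without this library, 17 of the 51 genes were called, 13 lower and 4 higher, and all 8 of the calls above were among them. The background rose too, to 11.1% of all genes lower and 8.93% higher. The genes gained as lower were MCM5, POLD1, LIG1, CCND3 and CDK4, and those gained as higher were ORC2, ORC3, CDK6 and RB1. The log2 fold change of CDK4 went from -0.07 to -0.18 (adjusted p = 0.0169, limma) and that of CDK6 from 0.06 to 0.18 (adjusted p = 0.0136, limma). Those of ORC2 and ORC3 were 0.22 and 0.24 (adjusted p = 0.0149 and 0.00593, limma). In 29 of the 51 genes the groups then did not overlap, as in 44.1% of all genes.

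**Figure D4:**
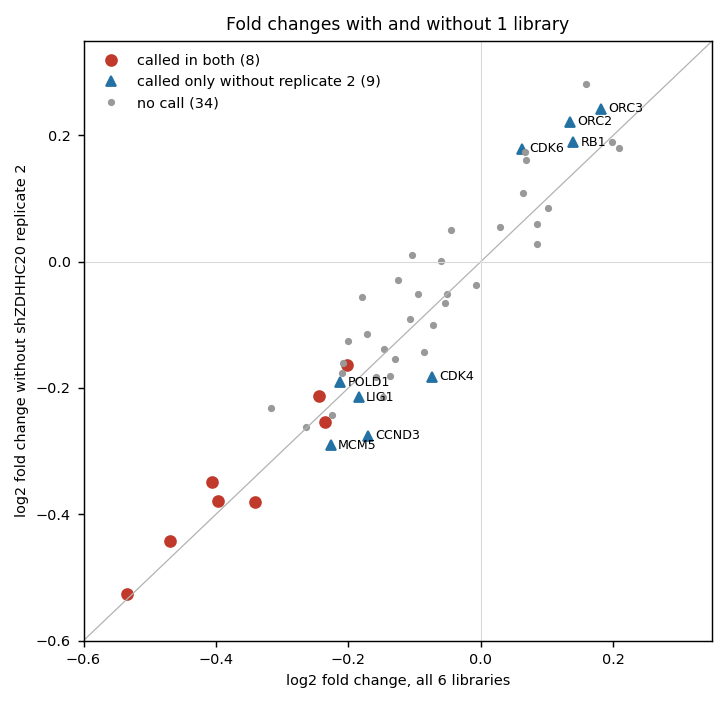
Log2 fold change of each of the 51 genes from all 6 libraries (x axis) against that from 5 libraries without shZDHHC20 replicate 2 (y axis), with the line of equal values in grey. Red circles are the 8 genes called in both, blue triangles the 9 called only without replicate 2 and grey points the 34 not called. The red circles stay close to the line, and CDK4 and CDK6 are moved away from it in opposite directions.

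The promoter table held 42 of the 51 genes. MCM4, MCM5, GINS4, POLD3, RPA2, RPA3, CCND1, CCNE2 and CDK2 had no entry. For 8 genes with several starts the first listed was used, and whether it is the main start was not checked. At least one of the E2F words shown above was found in the 300 bases around the start in 20 of 42 promoters (47.6%), against 3.33% of the first listed promoters of 27305 genes. With any listed promoter of a gene counted, 21 of the 42 genes held a word (50%), and 3.31% of all 35116 promoters did. The words were present in all 4 of the MCM helicase promoters in the table, and also in those of CDC6, CDT1, GINS1, PCNA, POLE and E2F1, which were not called. Of the 6 called genes with a promoter, 4 held a word, and of the 36 others 16 did (44.4%).

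Other words were counted in the same windows. CCAAT, the box bound by NF-Y, was in 52.4% of the 42 promoters against 35.7% of all genes, and CACGTG, the E-box to which MYC and other factors bind, in 16.7% against 7.43%. Both were searched on both strands. CACGTG was in the promoters of MCM2, MCM7 and RPA1 among the called genes, and in those of GMNN, FEN1, CDK4 and CDK6, which were not called. TTTGAA, the core of the CHR element of mitotic promoters, was in 0 of the 42 and in 15.4% of all genes, and in 11 of 16 promoters of mitosis genes. MYC itself was at 1797 to 1969 in shControl and 1218 to 1270 in shZDHHC20, a log2 fold change of -0.59 (adjusted p = 2.79e-05, limma).

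**Figure D5:**
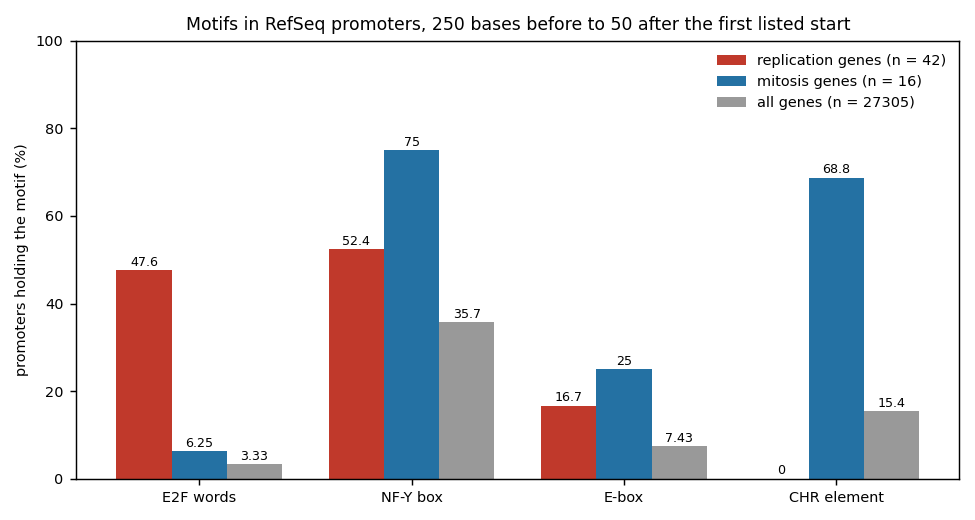
Percentage of RefSeq promoters, 250 bases before to 50 after the first listed start, that hold each motif (x axis) on either strand, for the 42 replication genes in the table (red), 16 mitosis genes (blue) and all 27305 genes (grey). The bars start at 0 and carry their values. The E2F words were in 47.6% of the replication promoters and 6.25% of the mitosis promoters, and the CHR element in 0% and 68.8%.

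Neighbouring gene groups were counted in the same fit, in which 11.5% of all genes and 24.7% of those reaching a mean of 500 were called. Among 37 other replication factors, 2 were lower and 1 was higher, which is 8.11% called, and the median log2 fold change was -0.08. A mean of 500 was reached by 18 of the 37. The lower ones were the histone chaperone ASF1B (539 ± 41.5 to 409.9 ± 14.6, log2 fold change -0.39, adjusted p = 0.00785, limma) and UHRF1, which guides maintenance DNA methylation (1373 ± 23.9 to 1129 ± 101, -0.29, adjusted p = 0.0163, limma), with SD and n = 3 each. TOP1, which relaxes supercoils ahead of the fork, rose from 2411, 2584 and 2518 to 3389, 2837 and 3358 (log2 fold change 0.35, adjusted p = 0.0046, limma).

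The enzymes of deoxynucleotide supply gave 4 lower and 0 higher of 11 (36.4%), all of which reached a mean of 500, with a median log2 fold change of -0.18 and 10 of 11 below 0. At an unadjusted p under 0.05, 7 were lower and 0 higher, and edgeR and DESeq2 called 4 lower and 0 higher. TYMS, thymidylate synthase, was at 929.6, 919 and 871 in shControl and at 568, 696 and 591 in shZDHHC20, and its log2 fold change of -0.56 (adjusted p = 0.000658, limma) was below that of every one of the 51 replication genes. RRM1, the large subunit of ribonucleotide reductase, fell from 2971 ± 125 to 2458 ± 285 (SD, n = 3 each; adjusted p = 0.028, limma). DUT, which removes dUTP, and DCTPP1, which clears modified dCTP, fell by 0.25 and 0.24 on the log2 scale.

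Of 25 other G1/S regulators tested from a list of 27, of which 12 reached a mean of 500, 6 were lower and 0 higher (24%). These were the factors E2F3, E2F5, E2F6 and FOXM1, the CDK inhibitor p27 (CDKN1B) and SKP2, which marks p27 for degradation. CDKN1B was at 1031, 1126 and 1017 in shControl and at 800.3, 830.2 and 791 in shZDHHC20 (log2 fold change -0.39, adjusted p = 0.0018, limma). SKP2 fell from 386 ± 13.3 to 281 ± 17.7 (adjusted p = 0.00439, limma) and E2F6, a repressor, from 324 ± 5.73 to 243 ± 11.5 (adjusted p = 0.00955, limma), with SD and n = 3 each. The genes lowered in this group thus included both drivers and brakes of the cycle, 8 were lower and 2 higher at an unadjusted p under 0.05, and edgeR and DESeq2 called 6 lower and 0 higher.

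Of 12 replication checkpoint genes, 8 reached a mean of 500 and 16.7% were called. CDC25C was lower (365 ± 6.72 to 272 ± 16.9, SD, n = 3 each; adjusted p = 0.0075, limma) and ETAA1, an activator of ATR, was higher (449.8 ± 23.9 to 578 ± 69.1, adjusted p = 0.0261, limma), and RAD17 had a log2 fold change of 0.16 that did not pass (adjusted p = 0.163, limma). Of 20 mitosis genes, 19 of them with a mean of 500 or more, 1 was lower (5%), the kinase PLK1 (1735 ± 5.00 to 1395 ± 77.5, SD, n = 3 each; log2 fold change -0.32, adjusted p = 0.00331, limma). In the mitosis group the median log2 fold change was -0.03, 0 were higher with any of the 3 tools or at an unadjusted p under 0.05, and UBE2C and MAD2L1 had log2 fold changes of -0.14 and -0.16 that did not pass (adjusted p = 0.131 and 0.165, limma).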

How the data were processed

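RNA of PANC-1 cells was sequenced from directional libraries in 3 shControl and 3 shZDHHC20 samples, and per the labels reads were processed on hg19. The aligner, the counting tool and its use of strand are not given in the sources used here. The authors deposited a normalized signal per gene and library in a table named as FPKM. All values (100%, within 0.1 read) were whole multiples of the smallest value of their library, and median-ratio factors were equal in all 6 libraries, so the signal was read as counts divided by one size factor per library, with no division by length. Columns named siZDHHC20 and NC were matched to the samples by group and replicate number.

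A linear model was fitted to log2(value + 0.1) with limma 3.58.1 in R 4.3.3, with a mean-variance trend, for 22189 genes, those whose mean reached 1. Fold changes on this scale can understate or overstate the ratio of group means in low genes. Tests were two-sided, adjusted by Benjamini-Hochberg over all genes tested and called at an adjusted p under 0.05. On data simulated for this comparison over 27394 genes, 198 of 200 genes changed 2-fold were recovered, and 2 of 22199 unchanged genes were called. The changed genes had a mean of at least 100 reads, and no library was simulated to stand apart. The simulation thus does not cover smaller changes or the noise of shZDHHC20 replicate 2. On the recovered reads, edgeR 4.0.16 called 2739 genes and DESeq2 1.42.0 called 2646, against 2541 in limma. Other alternatives were pseudocounts of 1 and 0.01, no filter or a minimum mean of 5, other scalings, other variance models, the replicate number as a block, and fits without each library. The members and gene lists were chosen with earlier results of these data known, so no list was tested as a set. Genes named were those called, the 2 with the smallest p in each role, MCM2 to MCM7, PCNA, CCND1, CCNE1, CDK4, CDK6, E2F1, CDKN1A and RB1, the 3 with the smallest p in each other list, ZDHHC20 and MYC. Other genes with values were chosen after these were seen. Identifiers were named from the reference table (27175 of 27394). Exon and coding lengths and overlapping genes came from GENCODE 29, and figures were drawn with matplotlib 3.10.9 in Python 3.11.15. CDKN2A and CDKN2B were not analysed here.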

Additional observations from a re-analysis of the deposited data

How the results depend on the processing

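With other pseudocounts (1 and 0.01), other minimum means (none and 5), other scalings (median-ratio and quantile), robust moderation, edgeR or DESeq2, 7 to 9 replication genes were called lower and 0 higher. Without the mean-variance trend 2 were called lower (RPA2 and CCND1), with 0 lower and 2 higher in the other lists, and without moderation 5 were called lower (POLD1, POLD2, RPA2, CCND1 and E2F2), with 5 lower and 3 higher in the other lists. The cause of these drops was not tested. All genes called numbered 351 and 912 under these 2 settings. The median log2 fold change of the 51 genes was -0.0986 with quantile normalization, where the log2 fold change of FEN1 changed sign to 0.00698. Leaving out each library in turn gave 5 to 13 replication genes lower, 0 to 4 higher, 19 to 29 with groups that do not overlap and a median between -0.146 and -0.0922, and 5 to 20 lower and 4 to 16 higher in the other lists. Leave-outs turned the sign of 9 genes that were not called, whose log2 fold changes then ran from -0.0419 to 0.0385 for FEN1, -0.0757 to 0.21 for PRIM1, -0.00269 to 0.11 for GMNN, -0.12 to 0.00515 for GINS4, -0.11 to 0.0503 for CDC6, -0.12 to 0.0018 for GINS1, -0.20 to 0.0109 for RFC1, -0.118 to 0.16 for POLA2 and -0.00133 to 0.18 for CDK6. ZDHHC20, MYC, RPA2 and CCND1 kept their direction and call under all alternatives run.

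Same-numbered libraries did not deviate together, with correlations of -0.0948, -0.156 and -0.0771 over the more abundant genes, so the replicate numbers were not taken as pairs. With a replicate block, 7 replication genes were called lower, MCM6 being the one lost, and 0 higher, and 1942 genes were called in all. The 20 genes under a mean of 500 had a median standard error of 0.110, against 0.0687 in the 31 others, and the part of depth in this was not tested.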

Other observations

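The replication-dependent histone genes, whose transcripts accumulate in S phase and mostly lack a poly(A) tail, were counted in the same fit. Of 57 listed, 45 were in the table and 36 were tested, with 4 higher and 0 lower in limma, edgeR and DESeq2 (12 higher and 0 lower at an unadjusted p under 0.05). This is 11.1% called, against 11.5% of all genes in either direction and 4.61% higher, and 11.2% of all genes were higher at an unadjusted p under 0.05. A mean of 500 was reached by 2 of the 36, and of all genes below that mean 5.59% were called in either direction. Among the 20 with a mean of at least 10, 15 had a log2 fold change above 0 and the median was 0.40. H2BC5 was at 247, 245 and 234 in shControl and at 465, 487 and 445 in shZDHHC20, a log2 fold change of 0.94 (adjusted p = 1.77e-05, limma). H2AC11 was at 113, 122 and 139 against 261, 184 and 259 (log2 fold change 0.90, adjusted p = 0.00162, limma), and H2BC12 rose from 736 ± 39.0 to 975 ± 36.6 (SD, n = 3 each; adjusted p = 0.00165, limma). H4C9 had a log2 fold change of 0.44 (adjusted p = 0.0319, limma). Histone genes are near-identical copies that can share reads, so the split of reads between them is uncertain. Counts per gene do not tell transcripts with a poly(A) tail from those without, and a link of these values to S phase was not tested.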
